A study of Mus musculus with 5 samples.

Results

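The hypoxia response genes described here are 10 genes of the oxygen-sensing pathway, Hif1a, Epas1, Arnt, Egln1, Egln2, Egln3, Vhl, Vegfa, Bnip3 and Slc2a1. They were chosen by gene symbol, and every probe set annotated to 1 of these symbols and to no other gene was taken, which gave 24 of 45037 probe sets and all 10 of the 10 genes. The study's arrays used here form 1 group of 5, each of GFP+ cells that flow cytometry sorted out of dissociated E17.5 lungs of FOXJ1-GFP embryos. FOXJ1-GFP mice were mated with the out-bred ICR strain, and only lungs that showed GFP were used, so all 5 samples carry the reporter. The replicates are labelled as biological, but neither the labels nor the methods say that each had its own litter, so the spread behind each p-value may be technical. The strain is cited to a description of a ciliated cell-specific promoter. The oxygen supply of the cells before lysis was found in neither the labels nor the methods, and no sample was treated to change oxygen.

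Cells sense oxygen through hypoxia-inducible factors (HIFs), which pair an oxygen-regulated alpha subunit with the stable partner encoded by Arnt. Where oxygen is plentiful, prolyl hydroxylases of the Egln family mark the alpha subunit, the Vhl product binds the mark, and the subunit is degraded. Where oxygen is low, the alpha subunit accumulates and the pair binds DNA at short hypoxia response elements. The pathway thus acts largely on protein, which these arrays do not measure. In the developing lung it is known for its part in vessel growth and in the maturation of the alveolar epithelium.

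All 10 genes were above background in the sorted cells, each judged by its brightest probe set. Of all 18193 genes 59.8% were. Of the 24 probe sets 20 were above background, against 42.4% of all probe sets, and 22 were above a cut-off of 5, against 72.2%. Both shares also cover probe sets with no gene or with several, unlike the 24. The study used 5 as a cut-off for average expression when it compared these arrays with others, and here it is applied to the mean of these 5 arrays alone. These genes are used in many tissues and were not drawn at random, so the shares are a description. Background was set at 7.74 on the log2 scale, below which lay the means of 95% of 158 genes chosen as a reference. These were olfactory, vomeronasal and taste receptor genes and tissue-restricted genes, and their absence from the sorted cells was not tested. A mean was called above the background level at an adjusted p under 0.05 (limma, one-sided, Benjamini-Hochberg over all probe sets). Of the 158 genes 7 were themselves called above it. Probes differ in how well they bind, so levels of different genes, or of different probe sets of a gene, are not ranked against each other.

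The samples held the transcripts of their label, ciliated cells, and also those of other lung cells. Of 14 measured ciliated cell markers 13 were above background, with Foxj1, the transcription factor that drives motile cilia, at 12.82 ± 0.08 (SD, n = 5 arrays). Against the 59.8% of all genes, the markers of other cells above background were 11 of 11 for alveolar type 2 cells, 12 of 12 for alveolar type 1 cells, 14 of 14 for endothelium, 10 of 12 for mesenchyme, 7 of 8 for club cells, 8 of 14 for white blood cells and 1 of 10 for red blood cells. Spag6 of the ciliated list, Gabrp of the club cell list and Dcn and Lum of the mesenchymal list were the markers of those lists not above background. Spag6 was read by 1 probe set, at 3.67 ± 0.13 (SD, n = 5 arrays), which does not show that its transcript is absent. The study measured Spag6 by qRT-PCR as a ciliated cell factor in adult cultures. The median level was 12.88 for the ciliated markers and 13.53 for those of club cells. It was 12.14 for alveolar type 2 and 12.04 for alveolar type 1 markers, a description only, since probes differ. The study lists Hopx, of the alveolar type 1 list, among genes earlier tied to ciliated cells or found enriched in airways. In these bulk samples, fewer cells of a type and less RNA per cell cannot be told apart. Any 2 arrays correlated at a Pearson's r of 0.987 to 0.994 across probe sets, which are not independent of each other.

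**Figure D1:**
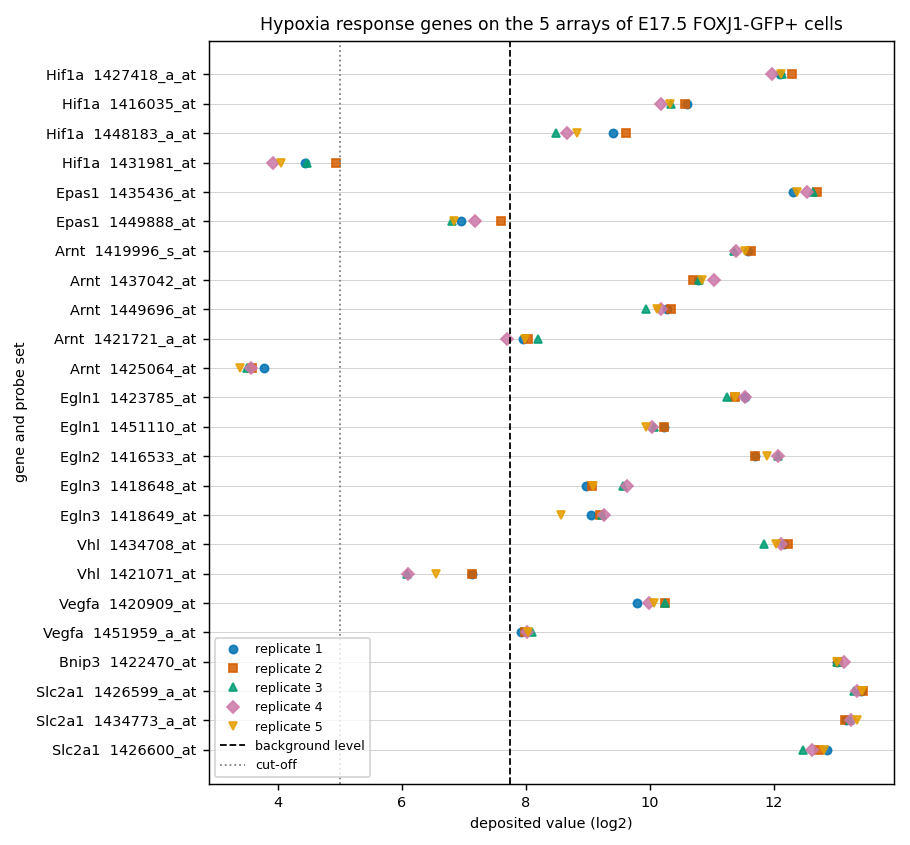
Deposited log2 values of the 24 probe sets of the hypoxia response genes. The horizontal axis gives the log2 value, each row is 1 probe set, each symbol 1 replicate, the dashed line the background level of 7.74 and the dotted line the cut-off of 5. The 4 probe sets wholly left of the dashed line belong to Hif1a, Epas1, Arnt and Vhl, and each of these genes has another probe set right of it.

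The 3 HIF subunit genes were each above background, but not with every probe set. Hif1a encodes the alpha subunit found in most cell types. Its probe set 1427418_a_at, made against alternative transcripts of the gene, read 12.09, 12.29, 12.13, 11.97 and 12.11 in replicates 1 to 5. These 5 values span 0.32, and all lie far above background (mean 12.12 ± 0.12, SD, n = 5 arrays; adjusted p = 2.64e-10, limma). Probe set 1416035_at read 10.60, 10.57, 10.34, 10.17 and 10.32, and replicates 1 and 2 were above the others. Probe set 1448183_a_at read 9.40, 9.61, 8.49, 8.66 and 8.83. Here the same 2 replicates stood apart by more, and the range of 1.11 was the widest among the 20 probe sets of these genes above background. The fourth, 1431981_at, lay between 3.91 and 4.93, under the cut-off of 5 on every array.

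Epas1 encodes HIF-2 alpha, the alpha subunit best known from vessels and from alveolar type 2 cells. Probe set 1435436_at read 12.31, 12.70, 12.63, 12.53 and 12.37 (mean 12.51 ± 0.16, SD, n = 5 arrays; adjusted p = 3.39e-10, limma). Replicates 1 and 5 were the lowest and replicate 2 the highest, within a range of 0.38. The endothelial markers, 14 of 14 above background with a mean level between 10.24 and 11.21 on the 5 arrays, were also lowest in replicates 1 and 5, at -0.58 and -0.14 from their own means, and were highest in replicate 3, at 0.39. The alveolar type 2 markers, with a mean level between 11.29 and 12.58, were lowest in replicate 1 at -0.64 and highest in replicate 5 at 0.65. The mesenchymal markers above background were lowest and highest in the same replicates as the endothelial ones. They lay at -0.26 and -0.10 in replicates 1 and 5 and at 0.33 in replicate 3. The alveolar type 1 markers were lowest in replicate 1 at -0.14 and highest in replicate 2 at 0.17. The part of these cells in the Epas1 values was not tested. The second Epas1 probe set, 1449888_at, read 6.95, 7.59, 6.81, 7.17 and 6.84, which is under background on all 5 arrays and over the cut-off of 5 (adjusted p = 4.15e-07, limma). Its highest array was again replicate 2.

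Arnt encodes HIF-1 beta, the partner of both alpha subunits. It had 5 probe sets, of which 4 were above background. The probe set 1419996_s_at, a type that can also bind transcripts of other genes, read 11.58, 11.63, 11.35, 11.38 and 11.53. Probe set 1437042_at ran from 10.70 in replicate 2 to 11.03 in replicate 4, and 1449696_at from 9.94 in replicate 3 to 10.34 in replicate 2, so these probe sets did not order the arrays alike. The call of 1421721_a_at was marginal. It read 7.95, 8.03, 8.19, 7.70 and 7.99, with replicate 4 under background, and its mean was 0.23 over it (adjusted p = 0.0274, limma). Without replicate 1, 2, 3 or 5 it was not called (adjusted p = 0.0956, 0.0663, 0.0907 and 0.0974). Probe set 1425064_at lay between 3.38 and 3.78 and was not above the cut-off of 5.

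The 4 genes that mark HIF alpha subunits for degradation were all above background. Egln1 encodes PHD2, the main oxygen sensor among the prolyl hydroxylases. Its probe set 1423785_at read 11.54, 11.37, 11.24, 11.54 and 11.37, and 1451110_at read 10.22, 10.22, 10.06, 10.03 and 9.93. Each spanned no more than 0.30, and replicate 1 lay above replicates 3 and 5 in both. Egln2 encodes PHD1 and had 1 probe set, 1416533_at, which read 11.70, 11.70, 12.06, 12.07 and 11.89. Replicates 1 and 2 were the lowest there, the reverse of Hif1a probe sets 1416035_at and 1448183_a_at (mean 11.88 ± 0.18, SD, n = 5 arrays; adjusted p = 8.79e-10, limma).

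Egln3 encodes PHD3, a hydroxylase that HIF itself induces in many cells. Probe set 1418648_at read 8.96, 9.06, 9.56, 9.63 and 9.08, and 1418649_at read 9.05, 9.19, 9.22, 9.25 and 8.56. Both were above background (means 1.52 and 1.32 over it; adjusted p = 4.34e-06 and 7.43e-06, limma) and both were highest in replicate 4. They disagreed at the low end, since replicate 1 was lowest in the first and replicate 5 in the second. Their ranges were 0.66 and 0.68. By their SDs of 0.31 and 0.28, they varied more between arrays than 85.8% and 82.4% of all probe sets above background, whatever their level.

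Vhl encodes the part of the ubiquitin ligase that recognises hydroxylated alpha subunits. Probe set 1434708_at read 12.16, 12.22, 11.84, 12.11 and 12.04 (mean 12.07 ± 0.15, SD, n = 5 arrays; adjusted p = 4.13e-10, limma). Probe set 1421071_at read 7.12, 7.12, 6.08, 6.09 and 6.54 and was under background on every array. Replicates 1 and 2 were the highest and replicate 3 the lowest in both.

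The 3 target genes were above background with all 6 of their probe sets, and the range over the 5 arrays ran from 0.11 for Bnip3 to 0.45 for Vegfa probe set 1420909_at. Bnip3 encodes a mitochondrial protein of the HIF response that acts in mitophagy. Its probe set 1422470_at read 13.01, 13.04, 13.02, 13.13 and 13.02 (mean 13.04 ± 0.05, SD, n = 5 arrays; adjusted p = 1.01e-10, limma). Of all probe sets above background, whatever their level, 3.1% had a smaller SD. Slc2a1 encodes GLUT1, a glucose transporter of most cells. Its probe set 1426599_a_at read 13.40, 13.44, 13.29, 13.34 and 13.42, 1434773_a_at lay between 13.15 and 13.34, and 1426600_at between 12.47 and 12.85. In the first and last of these replicate 3 was the lowest, but not in the other.

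Vegfa encodes the vascular growth factor that the alveolar epithelium makes for the capillaries beside it. Probe set 1420909_at read 9.79, 10.24, 10.24, 9.98 and 10.07 (mean 10.06 ± 0.19, SD, n = 5 arrays; adjusted p = 2.94e-08, limma). Probe set 1451959_a_at read 7.92, 7.99, 8.10, 8.01 and 8.03, just 0.27 above background but above it on all 5 arrays (adjusted p = 0.00276, limma). Replicate 1 was the lowest in both. The 12 alveolar type 1 markers, all above background with a mean level between 11.50 and 11.82, were also lowest in replicate 1, at -0.14 from their own means, as were the endothelial and alveolar type 2 markers given with Epas1. The mesenchymal and white blood cell markers above background were lowest in replicate 1 too, at -0.26 and -0.55. So was the 1 red blood cell marker above background, at -0.49. Only the ciliated and club cell lists were not lowest there. The part of these cells in the Vegfa values was not tested.

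HIF pairs bind DNA at the letters ACGTG or GCGTG, and the promoters of 4 members that HIF is known to induce are shown so that windows with and without these letters can be set side by side. RefSeq windows of the GRCm38.p6 assembly held 11 promoters for 9 of the 10 genes, with none matched for Epas1. Each sequence gives the 250 bases before the transcript start, 5′ to 3′ on the strand of the gene, with matches to the letters on either strand (CACGT or CACGC where they lie on the other one) in capitals. The windows lie at chr7:138909507-138909756 (minus strand) for Bnip3, chr4:119108495-119108744 (plus strand) for Slc2a1, chr12:54203875-54204124 (minus strand) for Egln3 and chr17:46032378-46032627 (minus strand) for the Vegfa start farthest upstream.
Bnip3: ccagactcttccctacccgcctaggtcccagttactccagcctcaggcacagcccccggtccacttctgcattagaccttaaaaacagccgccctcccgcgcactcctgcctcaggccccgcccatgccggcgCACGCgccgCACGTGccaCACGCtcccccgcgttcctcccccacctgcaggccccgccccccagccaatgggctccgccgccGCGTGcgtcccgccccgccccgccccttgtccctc
Slc2a1: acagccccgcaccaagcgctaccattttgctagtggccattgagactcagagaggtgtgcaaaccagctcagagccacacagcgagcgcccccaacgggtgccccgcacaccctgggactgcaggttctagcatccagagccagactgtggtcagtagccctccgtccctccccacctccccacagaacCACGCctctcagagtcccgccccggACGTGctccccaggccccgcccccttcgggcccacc
Egln3: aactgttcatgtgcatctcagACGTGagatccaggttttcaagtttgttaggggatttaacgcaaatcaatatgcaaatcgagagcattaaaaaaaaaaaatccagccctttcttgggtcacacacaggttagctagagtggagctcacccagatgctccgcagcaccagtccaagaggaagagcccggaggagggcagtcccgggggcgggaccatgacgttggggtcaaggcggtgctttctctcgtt
Vegfa: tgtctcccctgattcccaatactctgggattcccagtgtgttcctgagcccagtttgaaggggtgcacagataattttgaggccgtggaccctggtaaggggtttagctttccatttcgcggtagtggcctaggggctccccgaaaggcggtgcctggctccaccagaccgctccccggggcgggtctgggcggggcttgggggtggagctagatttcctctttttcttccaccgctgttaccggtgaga

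The Bnip3 window held 5 matches, 2 of which overlap in the palindrome CACGTG, and 4 of the 5 began between 99 and 117 bases before the start. The Slc2a1 window held 2, beginning 61 and 36 bases before the start, and the Egln3 window 1, at 229 bases. Of the 11 windows 9 held a match, and of all 32851 windows of that length 38.6% did. The windows without one were that of Vhl and the one shown for Vegfa. Sequence farther upstream was not searched, so a window without a match does not show that the gene has none. The other Vegfa window, at a start inside the gene, held 2. It lies wholly within the span of the gene, so these 2 matches are not upstream of Vegfa. The Hif1a window and the Egln2 window with 1 match also lie within their genes. All of these are counted among the 9. A match is a description of the letters, and binding was not measured.

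Across the 20 probe sets above background, the hypoxia response genes varied about as much between arrays as other probe sets. Their median SD was 0.15 on the log2 scale, against 0.16 for all 19078 probe sets above background, and 13 of the 20 were at or under the latter. The lowest SD was 0.05, for Bnip3, and the highest 0.48, for Hif1a probe set 1448183_a_at. The latter exceeded the SD of 96.9% of all probe sets above background, whatever their level. Within the pathway, the mean deviation over the 6 target probe sets spanned 0.09 on the log2 scale from the lowest to the highest array. It spanned 0.28 over the 8 probe sets of the HIF subunits and 0.29 over the 6 of the hydroxylases and Vhl. Both ranges were narrower without certain arrays. The first was 0.17 without replicate 2, and the second 0.18 without replicate 4 and 0.16 without replicate 5. In such means, probe sets that move opposite ways cancel, and a gene with several probe sets counts more than once. Single probe sets also weigh heavily. The largest deviation was 0.61 among the HIF subunits, for Hif1a 1448183_a_at in replicate 2. Among the hydroxylases and Vhl it was -0.49, for Egln3 1418649_at in replicate 5.

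**Figure D2:**
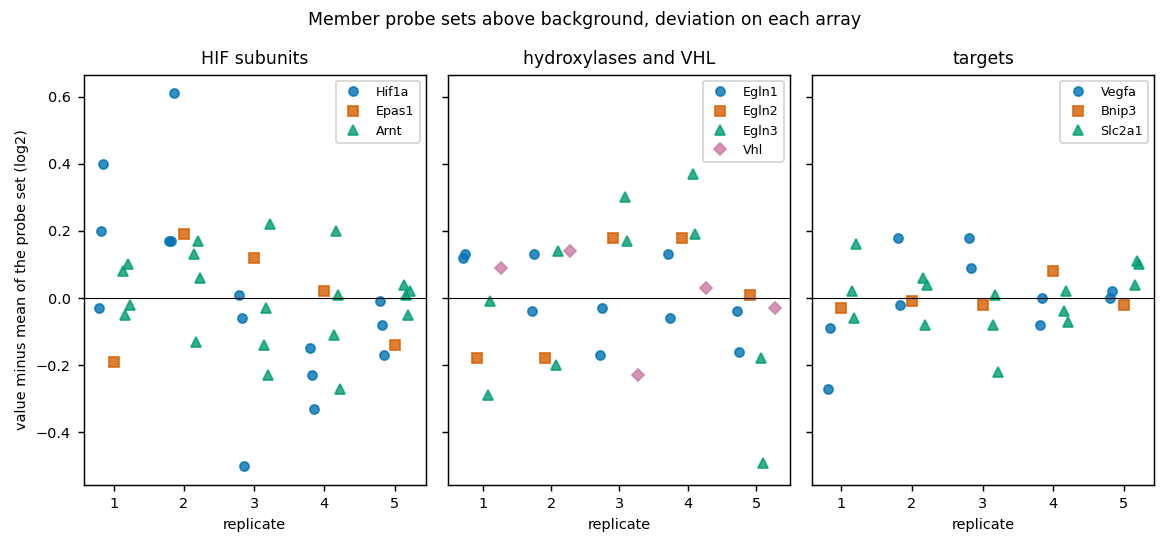
Deviation of the 20 probe sets above background from their own means, by replicate. The vertical axis is in log2 units, each symbol is 1 probe set and its shape and colour give the gene. Hif1a lies at 0.61 and -0.50 at its extremes in replicates 2 and 3, while Bnip3 stays between -0.03 and 0.08.

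Replicates 1 and 2 stood together in several of these probe sets. In 6 of the 20 both lay above replicates 3, 4 and 5, and in 5 of the 20 both lay below them. Over all probe sets above background these shares were 29.4% and 19.4%, so the arrangement was common on the arrays at large. Replicates 1 and 2, and replicates 4 and 5, were the closest pairs of arrays, with a median absolute difference of 0.162 each on the log2 scale, against 0.255 between replicates 1 and 3. This arrangement was noticed in the values and then counted, and the labels give no batch.

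Other genes of the pathway were mostly above background. Of 73 listed genes 65 had a probe set of their own, and 56 of the 65 were above background, against 59.8% of all genes. Their median level was 11.10 and that of all genes 9.07, a description only, since probes differ in how well they bind. All 8 measured relatives and partners of the HIFs were above background. Hif3a, the third alpha subunit, ran from 11.17 to 11.71 and was above background with 2 of its 6 probe sets. Arnt2, a relative of Arnt, was near the background level at 8.01 ± 0.23 (SD, n = 5 arrays; adjusted p = 0.0249, limma). Arntl, which encodes the clock factor BMAL1, was at 10.29 ± 0.17 by a probe set of mixed targets (those whose names hold _a_, _s_ or _x_, for several transcripts of a gene or of several genes) and at 3.75 without such probe sets, and Crebbp, a coactivator that HIFs recruit, at 12.64 ± 0.10. When each gene was taken as the average of its probe sets, 5 of these 8 were above background.

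Of 9 measured genes that act on HIF stability or activity 8 were above background. Hif1an, the asparaginyl hydroxylase known as FIH, was at 10.29 ± 0.11 (SD, n = 5 arrays). Cul2, the scaffold of the Vhl ligase, was at 11.21 ± 0.10, or 7.49 without probe sets of mixed targets, where the background level is also lower. Eloc, the elongin that links Cul2 and Vhl, was at 12.56 ± 0.03. Rbx1, the RING subunit of the same ligase, was the exception at 6.20 ± 0.13 by its only probe set.

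Of 16 measured genes of glucose and lactate metabolism 15 were above background. Without probe sets of mixed targets 8 were, and with the background level at the 99th percentile also 8. The first of these settings drops genes with no other probe set, such as Hk1, and has a lower background level. Slc2a3, which encodes the glucose transporter GLUT3, read 12.02, 11.02, 11.79, 10.16 and 10.72 in replicates 1 to 5, an SD of 0.77. These values come from a probe set that can bind transcripts of other genes, and without such probe sets the level of Slc2a3 was 5.07, below background. The hexokinases Hk1 and Hk2 were at 9.21 ± 0.16 and 9.68 ± 0.20, and Pfkl, a phosphofructokinase, at 11.43 ± 0.11, but at 6.76 without probe sets of mixed targets. Pfkfb4, at 7.92 ± 0.26, was not above background (adjusted p = 0.135, limma).

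Of 11 measured vascular signals and receptors 7 were above background, close to the 59.8% of all genes. The count was 3 with the background at the 99th percentile or from the tissue-restricted genes alone, and 11 with the receptor genes alone. Adm, which encodes adrenomedullin, was at 10.90 ± 0.28 (SD, n = 5 arrays), or 7.88 without probe sets of mixed targets. Edn1, endothelin, was at 9.14 ± 0.60, from 8.31 in replicate 1 to 9.70 in replicate 5. Its only probe set is of mixed targets. Angpt2 at 6.79 ± 0.23, Angptl4 at 7.05 ± 0.32, Nos2 at 7.92 ± 0.34 and Nos3 at 7.97 ± 0.28 were not above background (adjusted p = 1.0, 1.0, 0.208 and 0.0739, limma). As a list these genes spanned 0.67 between arrays, from -0.35 in replicate 1 to 0.31 in replicate 2. The endothelial markers spanned 0.97, and 0.53 without replicate 1, and they too were lowest in replicate 1. So were the other marker lists, except those of ciliated and club cells. The part of these cells in the vascular list was not tested.

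Of 21 measured other HIF targets 18 were above background, and 11 with the background at the 99th percentile. Ddit4, an inhibitor of mTORC1 signalling, was at 13.47 ± 0.12 (SD, n = 5 arrays), Ankrd37 at 12.01 ± 0.05, Ndrg1 at 10.86 ± 0.28 (9.11 without probe sets of mixed targets) and P4ha1, a collagen prolyl hydroxylase, at 10.40 ± 0.08. The carbonic anhydrases Car9 and Car12, at 6.01 ± 0.40 and 6.23 ± 0.30, and Stc2, at 7.38 ± 0.10, were not above background. Car9 had 1 probe set and Car12 and Stc2 had 3 each.

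**Figure D3:**
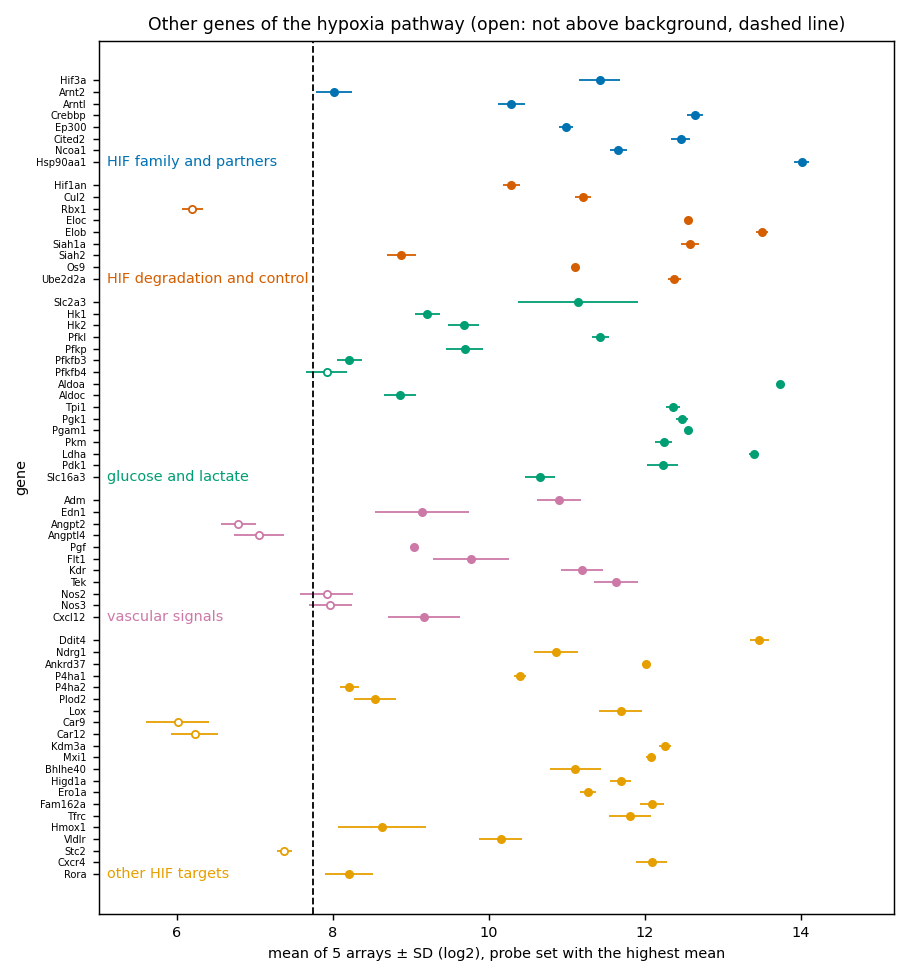
Level of 65 other genes of the pathway in the sorted cells. The horizontal axis gives the mean of 5 arrays on the log2 scale with its SD as a bar, each row is 1 gene by its probe set with the highest mean, and open symbols are genes not above the background level of 7.74 (dashed line). Open symbols are 9 of the 65.

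**Figure D4:**
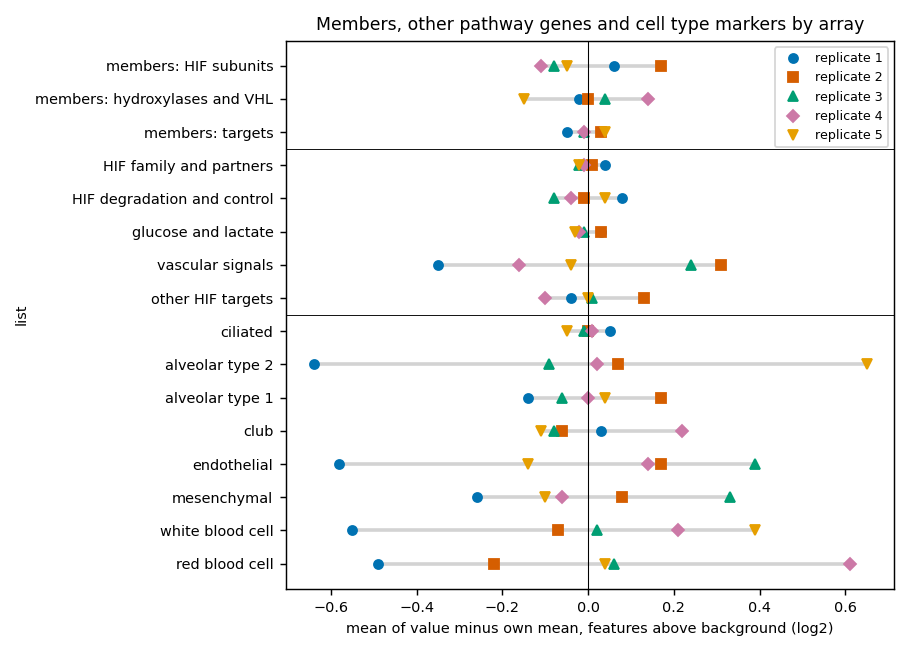
Mean deviation of gene lists from their own means on each array. The horizontal axis is in log2 units and covers features above background, each symbol is 1 replicate, and rows give the members by role, the other pathway lists and the cell type markers. The member targets span 0.09, the ciliated markers 0.11 (0.06 without replicate 1 or replicate 5) and the alveolar type 2 markers 1.29.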

How the data were processed

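Expression was measured on 5 Affymetrix mouse arrays, 1 per replicate, of GFP+ cells sorted from E17.5 FOXJ1-GFP lungs. The authors amplified and biotin-labelled the RNA and analysed the arrays with Bioconductor. They deposited normalized log2 values, 1 per probe set and array. That these values are on a log2 scale was inferred from their range, 2.37 to 15.24. The summary and normalization methods are not given in the sources used here. No value was missing and no genes were centred.

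Gene names were taken from the array platform's annotation, with Entrez identifiers checked against GRCm38.p6. After 64 controls were left out, 34945 probe sets had 1 gene, 932 had several and 9160 had none here. The mean of each probe set was fitted with limma 3.58.1 in R 4.3.3 and tested one-sided against 2 levels, 5 and the background level. The latter came from 76 olfactory, vomeronasal and taste receptor genes and 82 tissue-restricted genes. Benjamini-Hochberg adjustment ran over all 45037 probe sets. A gene was called by its probe set with the highest mean. The level test was tested on simulated data. Other steps used Python 3.11.15 with pandas 2.3.3. With 5 arrays, their number limits the precision.

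The members and lists were chosen with earlier results of these data known. Named are all members with every probe set, and of each other pathway list the first 4 measured genes and up to 5 whose call goes against most of it. Markers are given by list. Alternatives were each replicate left out, arrays quantile-normalized or centred on their median, probe sets of mixed targets left out, other background levels, a cut-off of 6, a call on all 5 arrays, and averaged probe sets.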

Additional observations from a re-analysis of the deposited data

Results flagged for a closer look

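In the 5 values of Bnip3 probe set 1422470_at, replicate 4 stood apart from the others at 13.13, with the nearest other value at 13.04. The gap was 0.786 of the whole range, over Dixon's critical value of 0.71, and the range itself was 0.11 on the log2 scale. It was the only one of 63 sets of 5 values to exceed it, counting 24 probe sets of the hypoxia response genes, 26 other pathway genes and 13 lists. Chance alone gives about 1 in 20.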

How the results depend on the processing

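With each replicate left out in turn, between 19 and 20 of the 24 probe sets and all 10 genes were above background. Quantile normalization or median centring changed none of the member and pathway counts.

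Leaving out probe sets of mixed targets left 13 member probe sets above background, since fewer were tested, and put Epas1 1449888_at 0.22 over that setting's level (adjusted p = 0.119, limma). With the background level raised to the 99th percentile, at 10.56, the counts were 11 member probe sets, 8 member genes (without Egln3 and Vegfa) and 34 pathway genes. Then Hif1a 1416035_at and 1448183_a_at (-0.16 and -1.56), Arnt 1449696_at and 1421721_a_at (-0.39 and -2.59), Egln1 1451110_at (-0.47), Egln3 1418648_at and 1418649_at (-1.30 and -1.51) and Vegfa 1420909_at and 1451959_a_at (-0.50 and -2.55) were below the level. With the tissue-restricted genes alone, at 9.38, 9 member genes remained and Hif1a 1448183_a_at (-0.39), Arnt 1421721_a_at (-1.41), Egln3 1418648_at and 1418649_at (-0.13 and -0.33) and Vegfa 1451959_a_at (-1.37) were below it. With the receptor genes alone, at 5.44, Epas1 1449888_at (1.63) and Vhl 1421071_at (1.15) were above it. The calls of Egln3 thus depend on the background chosen, and those of Bnip3 and Slc2a1 were the same at each level.

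No paired analysis was possible because there is 1 group. Several ranges of lists moved with 1 replicate. Leaving out replicate 1 gave an alveolar type 2 range of 0.74, and leaving out replicate 5 one of 0.71. Leaving out replicate 1 also gave a white blood cell range of 0.46.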
